A study of Mus musculus with 4 samples.

Results

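Transforming growth factor beta (TGF-β) genes were examined in the mouse lens with and without the calcium-binding protein S100A4. The set held 10 genes listed by name, with no threshold on their values: the ligands *Tgfb1*, *Tgfb2* and *Tgfb3*, the receptors *Tgfbr1*, *Tgfbr2* and *Tgfbr3*, the signal transducers *Smad2*, *Smad3* and *Smad7*, and *Tgfbi*, which encodes a TGF-β induced matrix protein. All 10 were among the 14924 genes of the normalized expression table. RNA-seq had been run on whole lenses of 1-month-old S100A4 null (S100A4-/-) mice and of wild-type (WT) littermates. Both groups were on the C57BL/6J background, neither was treated, and each was represented by 2 libraries of 6 to 12 pooled lenses. Mice of both sexes were used in the study, but the sources used here do not give the sex per library.

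TGF-β ligands are secreted in a latent form that is stored in the extracellular matrix. Once released, a ligand dimer binds the type II receptor Tgfbr2, which recruits and phosphorylates the type I receptor Tgfbr1, and Tgfbr1 phosphorylates Smad2 and Smad3 so that they enter the nucleus with Smad4. Smad7 is an inhibitor that the pathway itself induces. In the lens the pathway is known for its part in fiber cell differentiation and for driving epithelial cells into myofibroblast-like cells in some forms of cataract.

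The libraries held 81602367 and 74108017 reads in S100A4-/- lenses and 70253985 and 68038158 in WT lenses, and the 10 most abundant genes took between 60.1% and 61.7% of them. Values below are normalized read counts, that is, reads divided by a size factor for each library, with no correction for gene length. One read was worth 0.856 and 1.01 normalized reads in S100A4-/- lenses and 1.04 and 1.09 in WT lenses. *S100a4* itself stood at 14.6 and 18.2 in S100A4-/- lenses and at 14420 and 14385 in WT lenses, so every library matched its label. The lens fiber genes *Cryba1*, which encodes a crystallin, and *Mip*, which encodes the water channel of fiber cells, were present in all 4 libraries and did not pass the test (adjusted p = 0.455 and 0.124, limma). Replicates were pools of lenses, so p-values rest on the spread between pools and not between single mice. limma also borrowed that spread from genes of similar value, so its p-values do not reflect a gene's own pools alone.

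The levels of the 10 genes spanned a wide range in WT lenses. Levels of different genes were compared per length, as normalized reads per kilobase of exonic sequence per 1000000. The ligands came first. *Tgfb3* had a level per length of 11.8 ± 0.67 (SD, n = 2), *Tgfb2* of 9.87 ± 0.31 and *Tgfb1* of 3.21 ± 0.11. *Smad3* followed at 2.43 ± 0.024 and *Tgfbr1* at 1.62 ± 0.093. *Smad2* at 1.18 ± 0.00089 and *Smad7* at 1.16 ± 0.098 were the one pair of neighbours in this order whose WT values overlapped. *Tgfbr3* had a level per length of 0.633 ± 0.058 and *Tgfbi* of 0.144 ± 0.054. *Tgfbr2* was last at 0.00801 ± 0.00099. Among the genes with a level per length, *Tgfb3* lay at percentile 92.8 and *Tgfbr2* at percentile 1.50, so that the most abundant ligand and its type II receptor stood near opposite ends of the table. The order of levels was not tested, since each rests on 2 pools.

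**Figure D1:**
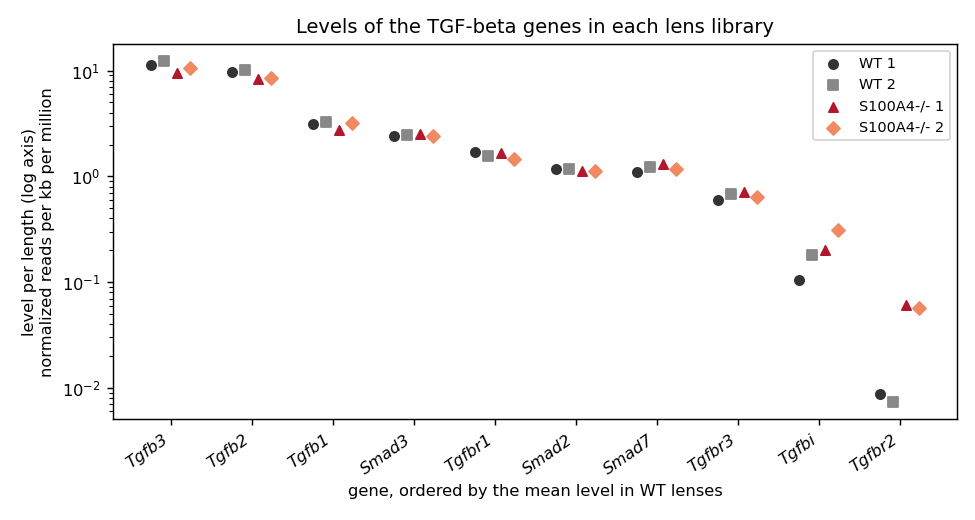
Level per length of each TGF-β gene in each of the 4 libraries, in normalized reads per kilobase per 1000000 on a log axis, with genes ordered by their mean level in WT lenses. The 2 S100A4-/- points of *Tgfbr2* lie far above its 2 WT points, while the points of most other genes lie close together.

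Promoter sequence is shown for 4 genes on which the comparison turns: the receptor gene that was higher in S100A4-/- lenses (*Tgfbr2*), a ligand gene that was slightly lower (*Tgfb2*), a ligand gene that was not called (*Tgfb1*), and the gene of the matrix protein with the highest fold change among the pathway genes described further on (*Ltbp2*). Each is the 250 bases before the RefSeq start on GRCm38.p6, written 5′ to 3′ on the strand of the gene. RefSeq promoters were sought for the members other than *Smad2* and *Smad7*, and were matched for 6 of the 10 genes. Capitals mark CAGAC or its reverse complement GTCTG, letters of the element that Smad proteins bind, and GGGCGG or its reverse complement CCGCCC, the GC box of Sp1. Both strands were searched, and neither motif contains the other.
Tgfbr2, chr9:116175364-116175613, minus strand: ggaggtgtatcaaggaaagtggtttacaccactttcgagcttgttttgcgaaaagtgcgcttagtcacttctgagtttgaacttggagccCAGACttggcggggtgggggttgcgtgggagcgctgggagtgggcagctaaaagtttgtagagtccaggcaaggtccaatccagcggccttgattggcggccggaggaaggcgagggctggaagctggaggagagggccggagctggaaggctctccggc
Tgfb2, chr1:186705990-186706239, minus strand: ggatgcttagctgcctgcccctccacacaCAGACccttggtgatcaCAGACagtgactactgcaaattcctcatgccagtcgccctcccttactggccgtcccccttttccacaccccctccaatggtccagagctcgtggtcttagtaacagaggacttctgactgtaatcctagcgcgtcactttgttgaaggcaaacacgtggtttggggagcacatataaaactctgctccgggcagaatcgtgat
Tgfb1, chr7:25686752-25687001, plus strand: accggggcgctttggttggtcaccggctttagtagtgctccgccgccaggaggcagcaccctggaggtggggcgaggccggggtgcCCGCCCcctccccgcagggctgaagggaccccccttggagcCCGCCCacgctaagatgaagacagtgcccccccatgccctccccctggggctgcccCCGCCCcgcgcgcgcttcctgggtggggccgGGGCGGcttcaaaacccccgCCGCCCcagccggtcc
Ltbp2, chr12:84876492-84876741, minus strand: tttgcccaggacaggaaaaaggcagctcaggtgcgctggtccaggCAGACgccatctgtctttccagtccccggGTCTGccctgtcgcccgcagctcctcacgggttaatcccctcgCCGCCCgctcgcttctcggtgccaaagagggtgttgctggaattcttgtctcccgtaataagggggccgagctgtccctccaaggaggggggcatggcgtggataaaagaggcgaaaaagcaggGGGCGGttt
The *Tgfbr2* window held 1 CAGAC match and 0 GGGCGG matches. *Tgfb2* held 2 CAGAC matches and 0 GGGCGG matches, *Tgfb1* held 0 and 5, and *Ltbp2* held 2 and 2. Among 32851 RefSeq promoter windows of the same length, 42.2% held a CAGAC match, 11.7% held 2 or more, and 32.7% held a GGGCGG match. The *Tgfb1* window had 21 CG dinucleotides, against 16 in *Ltbp2*, 12 in *Tgfbr2*, 8 in *Tgfb2* and a median of 6 over all windows. Such matches describe the letters of a window and were not tested for binding.

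S100A4-/- and WT lenses were then compared for the 10 genes with limma on log2(value + 1), and p-values were adjusted over all 14780 genes tested. One of the 10, *Tgfbr2*, rose by at least 2-fold with an adjusted p of at most 0.05, a rule that 3.65% of all genes passed upward. None of the 10 passed it downward, as 0.0744% of all genes did, and 4 of the 10 had an unadjusted p under 0.05 in either direction, as did 17.7% of all genes. Without a fold threshold *Tgfbr2* was again the one gene called higher (5.62% of all genes), and *Tgfb2* and *Tgfb3* were called lower (1.33% of all genes). DESeq2 and edgeR on the recovered reads each called *Tgfbr2* at 2-fold, a rule that 2.82% and 3.74% of all genes passed upward and 0.0402% and 0.0744% downward. Without the fold threshold each called 3 of the 10, where DESeq2 called 3.83% of all genes higher and 0.61% lower, and edgeR 5.81% and 1.22%. The values of the 2 groups did not overlap for 5 of the 10 genes, compared with 46.9% of all genes. The median log2 fold change of the 10 genes was -0.01, beside a median of -0.01 over all genes.

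**Figure D2:**
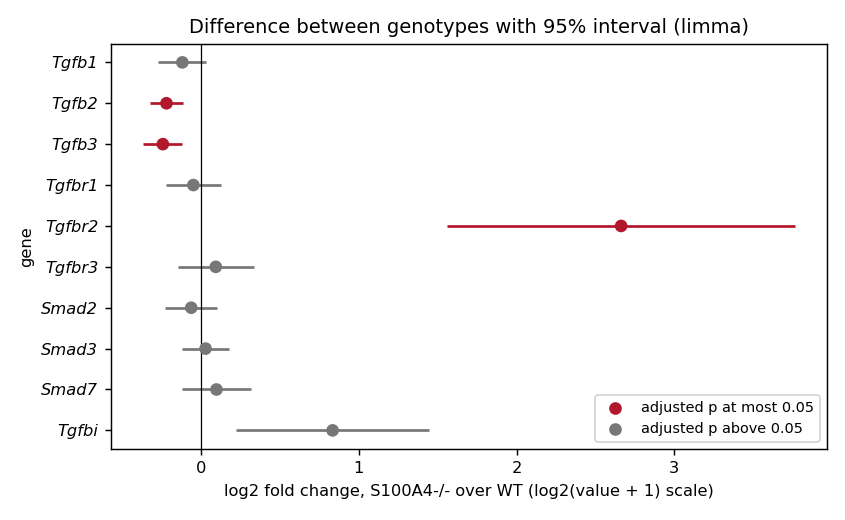
Log2 fold change of each TGF-β gene, S100A4-/- over WT, on the log2(value + 1) scale, with bars for the 95% interval from limma and red for an adjusted p of at most 0.05. *Tgfbr2* stands at 2.66 with an interval of 1.56 to 3.76, and *Tgfb2* and *Tgfb3* lie below 0. The intervals of *Tgfb1*, *Tgfbr1*, *Tgfbr3* and the Smads include 0. That of *Tgfbi*, 0.22 to 1.45, lies above 0, but its adjusted p is above 0.05.

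Among the ligand genes, *Tgfb2* and *Tgfb3* were lower in S100A4-/- lenses by a small margin. *Tgfb2* (chr1:186622792-186705989, minus strand), whose product is a major TGF-β of the eye fluids, had 3557 and 3637 normalized reads in S100A4-/- lenses and 4094 and 4278 in WT lenses. Both S100A4-/- values lay below both WT values, and the log2 fold change was -0.22 (SE 0.05, adjusted p = 0.00397, limma). *Tgfb3* (chr12:86056745-86079041, minus strand) had 2332 and 2635 normalized reads in S100A4-/- and 2816 and 3049 in WT lenses. Here too the groups did not overlap, with a log2 fold change of -0.24 (SE 0.06, adjusted p = 0.00726, limma). In means, *Tgfb2* differed by -14.1% and *Tgfb3* by -15.3%. *Tgfb1* (chr7:25687002-25705077, plus strand) had 1015 and 1176 normalized reads in S100A4-/- and 1157 and 1214 in WT lenses, so the groups overlapped (log2 fold change -0.12, SE 0.08, adjusted p = 0.443, limma; 95% interval -0.27 to 0.03). Neither ligand call held in every setting. With libraries scaled to equal totals, limma gave adjusted p-values of 0.0944 for *Tgfb2* and 0.0773 for *Tgfb3*. The calls were also lost without the first S100A4-/- library (log2 fold change -0.20 and -0.15, adjusted p = 0.0561 and 0.267, limma) and without the second WT library (-0.19 and -0.18, adjusted p = 0.134 and 0.19, limma). Over all alternatives the adjusted p ranged from 2.04e-04 to 0.337 for *Tgfb2* and from 1.62e-04 to 0.464 for *Tgfb3*.

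The type II receptor gene *Tgfbr2* (chr9:116084293-116175360, minus strand) was the member that differed most. It had 36.8 and 34.5 normalized reads in S100A4-/- lenses, from 43 and 34 reads, and 5.22 and 4.38 in WT lenses, from 5 and 4 reads. Both S100A4-/- values were well above both WT values, although all 4 were low. The log2 fold change was 2.66 (SE 0.54, adjusted p = 6.89e-04, limma), and the ratio of means was 7.42. From the 77 and 9 reads summed over each group the ratio was 7.43, with an exact 95% interval of 3.72 to 16.9 that covers counting error only. *Tgfbr2* passed the filters on low values only through its S100A4-/- libraries, so a higher value there was a condition of its being tested. The other 9 genes had a value of at least 10 in all 4 libraries. Left without the first or the second S100A4-/- library, the log2 fold change stayed at 2.62 or 2.71 and the adjusted p rose to 0.083 or 0.0654 (limma), at the upper end of a range of 9.47e-05 to 0.083 over all alternatives. In bulk tissue a larger number of cells that express a gene and more RNA in each cell cannot be told apart.

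Markers of some other eye tissues were also higher, beside 5.62% of all genes called higher at any fold (limma). All 9 rod photoreceptor markers were called higher in S100A4-/- lenses, and their summed value was 7652 and 7486 in S100A4-/- lenses against 1865 and 1948 in WT lenses. *Gnat1*, the rod transducin gene, had the highest value of them, with 3339 and 3327 against 736 and 782. Here and below, the most abundant gene of a list is the one with the highest normalized value averaged over all 4 libraries, which is not corrected for length and can differ from the order per length or within a group. Of the ciliary body markers 5 of 6 were called higher, with sums of 5848 and 5591 against 1482 and 1658. For endothelium, a cell type in which *Tgfbr2* is well known, 2 of 8 markers were called higher, and the sums were 509 and 515 against 253 and 309. The receptor genes *Kdr* and *Flt1* were those 2, and *Flt1* had the highest mean value over the 4 libraries, although not in WT lenses alone. Like *Tgfbr2*, *Kdr* reached the filter value of 10 only in S100A4-/- lenses. The other 6 were not called. Of the 8 log2 fold changes 6 were positive and 2 negative, and for those 2 both S100A4-/- values lay below both WT values. The part of these cell types in the *Tgfbr2* result was not tested.

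The other receptors showed no such difference. *Tgfbr1* (chr4:47353222-47414931, plus strand), the type I receptor kinase, had 804 and 697 normalized reads in S100A4-/- and 806 and 743 in WT lenses (log2 fold change -0.05, SE 0.09, adjusted p = 0.838, limma). *Tgfbr3* (chr5:107106570-107289629, minus strand), a co-receptor that presents ligand and in particular TGF-β2, had 338 and 309 in S100A4-/- and 284 and 323 in WT lenses (0.09, SE 0.12, adjusted p = 0.757, limma). Both pairs of groups overlapped, and the 95% intervals of the log2 fold change ran from -0.22 to 0.13 for *Tgfbr1* and from -0.15 to 0.34 for *Tgfbr3*. Per length, *Tgfbr1* was 193 and 213 times as abundant as *Tgfbr2* in the WT libraries and 27.4 and 25.4 times in the S100A4-/- libraries. *Acvr2a*, a type II receptor of the related activins, had a WT level per length of 1.60, close to that of *Tgfbr1*.

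The Smad genes differed little between the genotypes. Of the 3, none was called by limma, DESeq2 or edgeR, and 0 had an unadjusted p under 0.05 (limma). Over all genes 17.7% had such a p, and limma called 5.62% higher and 1.33% lower. The absence of calls among 3 genes is near those shares. *Smad2*, which carries the signal of the activated receptor, had 727.9 and 729.7 normalized reads in S100A4-/- and 760.1 and 761.0 in WT lenses. Its groups did not overlap, yet the log2 fold change was -0.06 (SE 0.08, adjusted p = 0.769, limma). *Smad3* (chr9:63646767-63757994, minus strand), the other receptor-activated Smad, had 1025 and 984 in S100A4-/- and 977 and 991 in WT lenses (0.03, SE 0.07, adjusted p = 0.892, limma). *Smad7*, the inhibitor, had 429 and 391 in S100A4-/- and 360 and 406 in WT lenses (0.10, SE 0.11, adjusted p = 0.708, limma). The 95% intervals of the log2 fold change were -0.23 to 0.10 for *Smad2*, -0.12 to 0.18 for *Smad3* and -0.12 to 0.32 for *Smad7*.

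*Tgfbi* (chr13:56609523-56639562, plus strand) encodes a secreted adhesion protein of the matrix that is best known from the cornea. It had 55.7 and 86.1 normalized reads in S100A4-/- lenses, from 65 and 85 reads, and 29.2 and 50.4 in WT lenses, from 28 and 46 reads. The S100A4-/- values lay above the WT values, but the lower S100A4-/- pool and the higher WT pool were close. The log2 fold change of 0.83 (SE 0.30) did not pass the test (adjusted p = 0.0979, limma). Without the second WT library it was 1.22 and was called (adjusted p = 0.00758, limma), and without the first it was 0.45 (adjusted p = 0.533, limma). The adjusted p ranged from 0.00758 to 0.613 over all alternatives.

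The wider pathway was read from 6 lists with 85 genes, of which 79 were in the table. Of these 79, 4 passed the 2-fold rule upward and 0 downward, while 11 were called higher and 2 lower at any fold. Over all genes the shares were 3.65% and 0.0744% at 2-fold and 5.62% and 1.33% at any fold, so the 2-fold count was near the background. DESeq2 called 11 of the 79 in either direction at any fold, edgeR 13, and 23 had an unadjusted p under 0.05 (limma), which 17.7% of all genes had. Of the 79, 3 reached the filter value of 10 only in S100A4-/- lenses, and these are not among the 11. The median log2 fold change over the 79 was 0.06, beside -0.01 over all genes. By list, 5 of the 11 genes called higher belonged to latency and activation, 2 to traps and co-receptors and 4 to response genes.

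Genes of latent TGF-β storage and activation held the 2 called pathway genes with the largest fold changes. Of 14 genes tested 5 were called higher, 0 lower and 9 were not called, with a median log2 fold change of 0.21. *Ltbp2* (chr12:84783212-84876532, minus strand), a latent TGF-β binding protein family member that associates with fibrillin microfibrils and the ciliary zonule, had 1362 and 1313 normalized reads in S100A4-/- lenses and 257 and 353 in WT lenses. That was a log2 fold change of 2.15 (SE 0.10, adjusted p = 4.08e-19, limma). *Fbn1* (chr2:125300594-125507993, minus strand), fibrillin-1, the main component of these microfibrils, had 3258 and 2890 in S100A4-/- and 734 and 966 in WT lenses. Its log2 fold change was 1.86 (SE 0.08, adjusted p = 3.31e-20, limma). For both genes each S100A4-/- value was well above both WT values, and the WT pools lay further apart in relative terms than the S100A4-/- pools. With each library left out in turn and under every other alternative, the log2 fold change lay between 1.92 and 2.38 for *Ltbp2* and between 1.67 and 2.06 for *Fbn1*. In limma without the trend neither gene was called (adjusted p = 0.0563 for *Ltbp2* and 0.0613 for *Fbn1*). *Ltbp1*, which binds latent TGF-β in the matrix, had 1057 and 1152 in S100A4-/- and 671 and 657 in WT lenses (0.73, SE 0.08, adjusted p = 5.13e-09, limma). *Ltbp3* was also called higher by a small margin (0.29, SE 0.06, adjusted p = 4.04e-04, limma). *Thbs1*, thrombospondin-1, an activator of latent TGF-β, had a log2 fold change of 0.43 (SE 0.12, adjusted p = 0.0196, limma), but of 0.25 without the first S100A4-/- library (adjusted p = 0.439) and of 0.40 without the second WT library (adjusted p = 0.0644). DESeq2 did not call it (adjusted p = 0.157), and its adjusted p ranged from 0.00347 to 0.439 over all alternatives. *Itgb5*, an integrin subunit and the most abundant gene of the list by value, had 13458 and 13683 in S100A4-/- and 13487 and 14060 in WT lenses. *Ltbp4* had a log2 fold change of 0.30 (adjusted p = 0.198, limma).

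Among ligand traps and co-receptors 2 of 10 tested genes were called higher and 0 lower, with a median log2 fold change of 0.47. *Fmod*, fibromodulin, a small proteoglycan that binds collagen and TGF-β, had 1547 and 1700 normalized reads in S100A4-/- lenses and 625 and 749 in WT lenses (1.24, SE 0.08, adjusted p = 3.91e-15, limma). *Bambi*, a pseudoreceptor that lacks the kinase domain and dampens signaling, had 178 and 165 in S100A4-/- and 72.0 and 85.4 in WT lenses (1.12, SE 0.19, adjusted p = 4.41e-05, limma). Neither gene's groups overlapped. *Eng*, endoglin, a co-receptor of endothelial cells, had 48.8 and 35.5 in S100A4-/- and 18.8 and 19.7 in WT lenses but was not called (1.07, SE 0.38, adjusted p = 0.0877, limma). *Dcn*, decorin, had fewer than 20 normalized reads in every library (adjusted p = 0.389, limma). *Bgn*, biglycan (-0.18, adjusted p = 0.369, limma), and *Pmepa1*, an inhibitor of Smad signaling (0.23, adjusted p = 0.112, limma), were not called, although *Pmepa1* was called without the first WT library (0.36, adjusted p = 0.0125, limma; range 0.0125 to 0.749 over all alternatives).

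**Figure D3:**
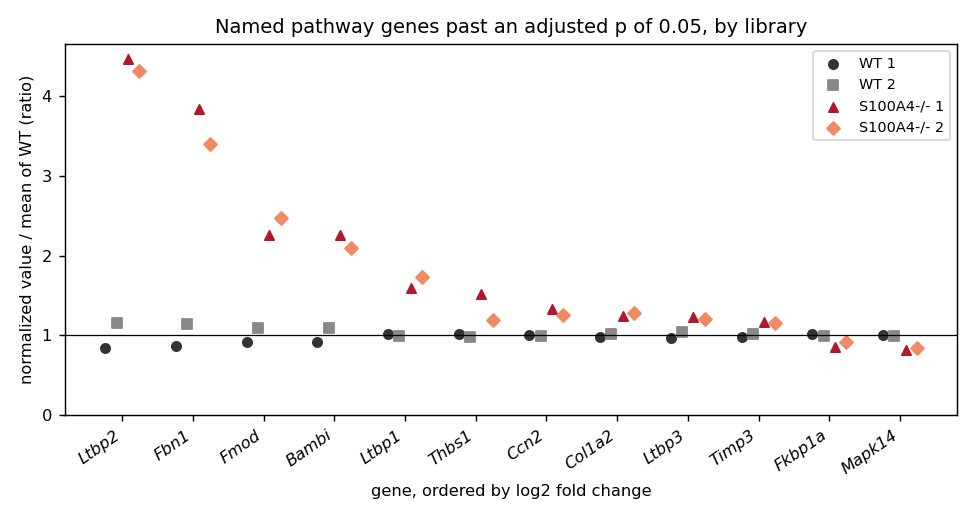
Normalized value of the called pathway genes named in the text, in each library, divided by the gene's mean in WT lenses, on a linear axis that starts at 0. The S100A4-/- points of *Ltbp2* and *Fbn1* lie highest, those of *Fmod* and *Bambi* lie above 2 times the WT mean, and those of *Fkbp1a* and *Mapk14* lie below the line at 1.

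Inside the cell the differences were small. Of 16 Smad partners and regulators 1 was called lower and 15 were not called, with a median log2 fold change of 0.00. The gene was *Fkbp1a*, whose product FKBP12 holds the type I receptor inactive. It had 3855 and 4167 normalized reads in S100A4-/- and 4609 and 4498 in WT lenses (-0.18, SE 0.05, adjusted p = 0.0209, limma). That call was lost under equal totals (adjusted p = 0.22), and also without the first S100A4-/- library (-0.13, adjusted p = 0.26), the first WT library (-0.17, adjusted p = 0.21) or the second (-0.20, adjusted p = 0.0783), all with limma. Quantile normalization (adjusted p = 0.116), limma without the trend (0.46) and DESeq2 (0.0661) did not give the call either. Over all alternatives the adjusted p ranged from 0.00239 to 0.46. *Strap* (0.14, adjusted p = 0.107), the repressor *Ski* (0.12, adjusted p = 0.317) and *Trim33* (0.13, adjusted p = 0.407) were not called by limma. Among 8 genes of the Smad-independent arm, *Mapk14*, the p38 alpha kinase, was called lower and the other 7 were not called. It had 4031 and 4211 in S100A4-/- and 5018 and 4951 in WT lenses (-0.27, SE 0.05, adjusted p = 1.46e-04, limma). *Tab2*, an adaptor of the TAK1 kinase and the most abundant of that list, had 6871 and 6787 in S100A4-/- and 6888 and 7093 in WT lenses. In the activin branch 0 of 7 tested genes were called by limma, DESeq2 or edgeR, and 0 had an unadjusted p under 0.05. Over all genes 17.7% had such a p (limma). All 7 had overlapping groups, among them *Acvr2a* with 723 and 692 in S100A4-/- and 709 and 625 in WT lenses, and the smallest adjusted p was 0.624, for *Inhbb*.

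Genes that TGF-β is known to induce or repress in other cells were mixed. Of 24 tested 4 were called higher, 0 lower and 20 were not called, with a median log2 fold change of 0.17. *Ccn2*, connective tissue growth factor, had 1649 and 1557 in S100A4-/- and 1242 and 1233 in WT lenses (0.37, SE 0.07, adjusted p = 1.07e-04, limma). *Col1a2*, a type I collagen chain, had 1103 and 1134 in S100A4-/- and 869.8 and 899 in WT lenses (0.34, SE 0.07, adjusted p = 0.00161, limma). *Timp3*, a metalloproteinase inhibitor, differed least of the 4 (0.21, SE 0.05, adjusted p = 0.00106, limma) and was not called without the first WT library (0.19, adjusted p = 0.0765). Its adjusted p ranged from 1.11e-05 to 0.337 over all alternatives. None of the 4 reached 2-fold. *Col4a1*, a lens capsule collagen chain and the most abundant gene of the list, had a log2 fold change of -0.07 (SE 0.04, adjusted p = 0.404, limma), and *Tsc22d1* of -0.03 (adjusted p = 0.796).

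**Figure D4:**
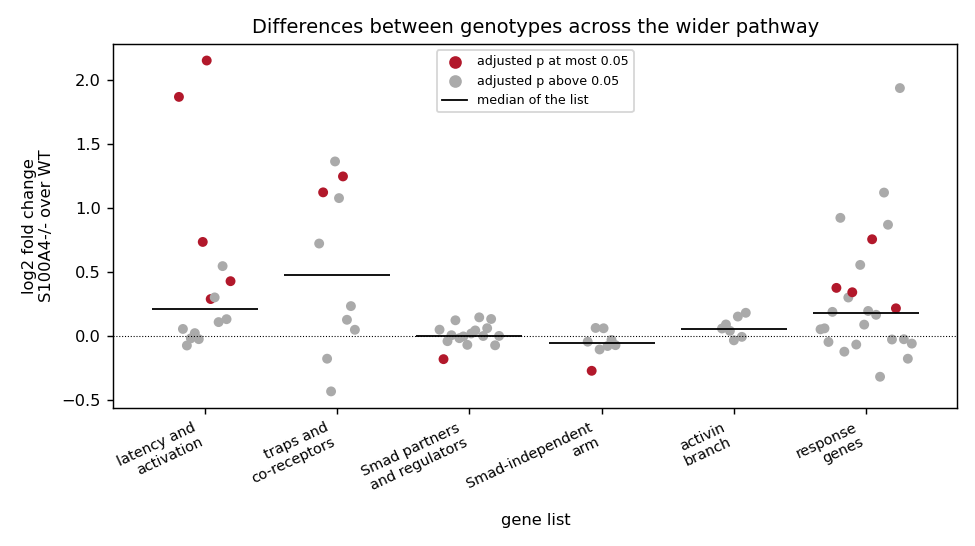
Log2 fold change of each tested gene of the 6 pathway lists, S100A4-/- over WT, with a line at the median of each list and red for an adjusted p of at most 0.05. Latency, trap and response genes reach above 1, the response genes there without a call, while Smad partners, the Smad-independent arm and the activin branch lie close to 0.

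Markers of lens cells and of neighbouring tissues were compared in the same fit, which called 5.62% of all genes higher and 1.33% lower. None of 9 lens fiber markers and none of 6 lens epithelium markers was called by limma, with 2 genes of each list at an unadjusted p under 0.05. DESeq2 and edgeR each called 1 of the fiber markers and 0 of the epithelium markers. *Cryab*, the most abundant epithelium marker listed, had a log2 fold change of -0.10 (adjusted p = 0.42, limma). Of the pigment cell markers 5 of 6 were called higher, led by *Dct*, a melanin synthesis enzyme, with 581 and 582 normalized reads in S100A4-/- and 31.3 and 44.9 in WT lenses. Of those 5, *Mlana* reached the filter value only in S100A4-/- lenses. The summed value of all 6 was 1837 and 1848 in S100A4-/- against 897 and 954 in WT lenses. The most abundant marker, *Mitf*, was not called (-0.15, adjusted p = 0.381, limma). Without *Mitf* the sums were 1177 and 1230 in S100A4-/- against 174 and 261 in WT lenses. *Col18a1*, a basement membrane collagen and the most abundant ciliary body marker, had a log2 fold change of 2.32 (adjusted p = 1.05e-26, limma). Among Müller glia markers 3 of 6 were called higher, including *Glul*, glutamine synthetase (1.55, adjusted p = 4.74e-23, limma), and the summed value, mostly of *Dkk3*, was 85063 and 86825 against 80434 and 80816. Macrophage and microglia markers were called higher in 5 of 9 cases, with sums of 362 and 311 against 131 and 107 and *Csf1r* as the marker with the highest mean value before correction for length. DESeq2 called 2 of these 9 and edgeR 5. For fibroblasts 0 of 5 markers were called higher and *Col6a3*, the most abundant, was lower (-0.21, SE 0.04, adjusted p = 7.47e-04, limma), with 2 markers at an unadjusted p under 0.05 and 1 called by DESeq2 and by edgeR, and the summed value was 15836 and 15701 against 17502 and 18009. No listed marker in the table was at 0 reads in all libraries. The markers called higher were so in the same libraries as *Ltbp2*, *Fbn1*, *Fmod* and *Bambi*, and their part in those results was not tested.

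**Figure D5:**
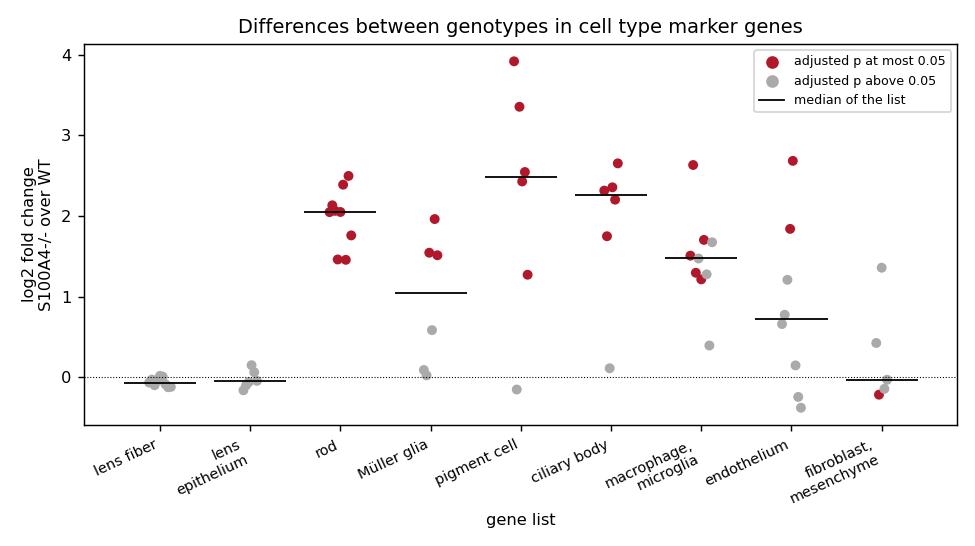
Log2 fold change of each tested cell type marker, S100A4-/- over WT, with a line at the median of each list and red for an adjusted p of at most 0.05. Lens fiber and lens epithelium markers lie near 0, whereas the 9 rod markers and most pigment cell and ciliary body markers lie above 1.

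The genes with the pattern most like that of *Tgfbr2* were sought among 925 genes whose mean in WT lenses was within 2-fold of its own, by the distance between 4 values of log2(value + 1) centred on the WT mean. The 5 nearest were *Tmem59l* (distance 0.0789), *Pde3a* (0.135), *Tmem215* (0.168), *Gngt2* (0.181) and *Mlph* (0.343). *Tmem59l* had 35.1 and 33.4 normalized reads in S100A4-/- and 5.22 and 4.38 in WT lenses, almost the values of *Tgfbr2*. *Gngt2*, which encodes a transducin subunit of cone photoreceptors, had 22.3 and 19.3 in S100A4-/- and 3.13 and 2.19 in WT lenses. *Mlph*, melanophilin, which links pigment granules to their motor, had 48.0 and 49.7 in S100A4-/- and 6.26 and 7.66 in WT lenses. All 5 genes reached the filter value of 10 in their S100A4-/- libraries only, so that a higher value there was a condition of being tested, as it was for *Tgfbr2*. The likeness rests on 4 libraries and on low read numbers, and is a description only.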

How the data were processed

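Single-end, stranded mRNA-seq was run on 4 lens libraries, and groups were taken from the sample labels. After trimming with Trim Galore and alignment by STAR (mm10, GRCm38), the authors used HTSeq for gene counts, dropped genes under 10 reads in all libraries and applied DESeq2 normalization. Tool versions are not given in the sources used here. The deposited signal values are counts divided by a size factor. Dividing by the smallest step gave whole reads for 100% of values in each library (tolerance 0.01).

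limma 3.58.1 (R 4.3.3; lmFit, eBayes with trend) was run on log2(value + 1) for the 14780 genes that reached a value of 10 in any library, with Benjamini-Hochberg adjustment. For low genes this scale gives too small a fold change. Genes were called at an adjusted p of at most 0.05, with or without a 2-fold threshold. On recovered reads at 2-fold, DESeq2 1.42.0 called 421 genes higher and 6 lower, and edgeR 4.0.16 called 553 and 11, against 539 and 11 in limma. Scripts were tested on simulated data. Positions and exonic lengths are from GENCODE M21 (14782 genes matched).

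Members and lists were chosen with earlier results of these data known. Named genes were all 10 members and *S100a4*; from each pathway list those called at 2-fold, the 4 with the next smallest adjusted p and the 2 most abundant; from marker lists the most abundant and up to 3 with the largest fold changes; and the 5 genes most like *Tgfbr2*. One gene that the rule names is not reported here, but it is counted in its list. Alternatives were pseudocounts of 0.5 and 5, no filter, a mean of at least 50, TMM factors, quantile normalization, equal totals, a block for replicate number, limma without the trend, both count tests and each library left out.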

Additional observations from a re-analysis of the deposited data

How the results depend on the processing

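No call on a named member or pathway gene, or on *S100a4*, changed direction under the alternatives that gave it a value, which were 15 for most genes, 14 for *Tgfbr2* and *Eng* and 13 for *Dcn*. Counts of cell type markers were compared between limma, DESeq2 and edgeR only. Over all genes, 539 were higher and 11 lower at 2-fold, and 831 and 197 at any fold. A mean of at least 50 gave 281 and 6 at 2-fold and 549 higher at any fold, and limma without the trend 174 and 7 at 2-fold and 179 and 8 at any fold. Quantile normalization gave 23 lower at 2-fold. DESeq2 gave 6 lower at 2-fold and 91 at any fold, and equal totals 55 lower at any fold. With each library left out in turn, the counts ranged from 275 to 535 higher and 6 to 13 lower at 2-fold, and from 404 to 795 and 87 to 161 at any fold. A group left with 1 library was assumed to vary like the other.

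Of the 10 TGF-β genes, 0 were called higher with a mean of at least 50, which removed *Tgfbr2* from the test, and 0 to 2 with a library left out. For the lower calls, equal totals gave 0, quantile normalization 1 (*Tgfb2*; *Tgfb3* had an adjusted p of 0.053), limma without the trend 0 (adjusted p = 0.337 and 0.464), and the left-out libraries 0 to 2. The 79 pathway genes held 0 calls higher at either threshold and 0 lower in limma without the trend, where *Ltbp2*, *Fbn1*, *Fmod* and *Bambi* had adjusted p-values of 0.0563, 0.0613, 0.0687 and 0.0714. Equal totals, quantile normalization and DESeq2 each left 1 pathway gene lower. Left-out libraries gave 3 to 5 pathway genes higher at 2-fold, 10 to 12 at any fold and 1 to 2 lower. The cause of these changes was not tested.

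Libraries with the same replicate number are pools of different animals, so the numbers were not taken to pair the samples. Their deviations from the group means correlated at 0.0119. With 2 libraries per group both pairs give the same value by construction, so the second pair adds no further check. With the replicate block, 348 genes were lower at any fold, and 2 members were higher, *Tgfbr2* and *Tgfbi* (adjusted p = 0.0483). It also gave 14 pathway genes higher, among them *Strap* (adjusted p = 0.0465) and *Pmepa1* (adjusted p = 0.0424). Over all genes the median log2 fold change stayed between -0.03 and 0.02 under every alternative. *Tgfbr2* in WT lenses rests on 5 and 4 reads, so its fold change is limited by depth.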
